A study of Homo sapiens with 6 samples.

Results

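The collagen genes comprised the 44 symbols of the count table that consist of COL, a type number, A and a chain number, out of 61155 symbols in all. Collagens are secreted or membrane-bound proteins of the extracellular matrix, each built from 3 chains wound into a triple helix. The helix requires glycine at regular steps along the chain, which repeats the motif Gly-X-Y. Fibrillar collagens pack into the fibrils of connective tissue, the type IV collagens form the sheet-like network of basement membranes, and FACIT collagens (fibril-associated collagens with interrupted triple helices) decorate fibrils. Short chain collagens form lattices, and the remaining types include beaded filaments, anchoring fibrils, transmembrane collagens and the multiplexins. The 44 genes were divided by type number into 11 fibrillar, 6 basement membrane, 10 FACIT, 3 short chain and 14 other genes.

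The genes were measured by poly(A) RNA sequencing of H7 cells, an established line of human embryonic stem cells (hESCs), in 3 wild-type (WT) and 3 S6K1-/- libraries. S6K1 is a kinase of the mTOR pathway encoded by RPS6KB1, and the S6K1-/- cells carry a CRISPR/Cas9 deletion made with guides to exons 9 and 11. All S6K1-/- libraries came from clone #1, so the genotype and the clone cannot be told apart. Both groups were undifferentiated and grown without feeder cells on Matrigel, a basement membrane extract, in TeSR-E8 medium, whereas the sample labels name week 5 and a knockdown. Nothing states that the 3 libraries of a group were separate cultures, so p-values measure only the spread between these libraries.

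Library totals were between 21896698 and 24473013 counts, and from 8.54% to 9.74% of a library was mitochondrial. RPS6KB1, which checks the labels, was counted 831, 791 and 777 times in WT and 464, 464 and 438 times in S6K1-/- cells, and its log2 fold change was -0.75 ± 0.06 (SE, adjusted p = 2.52e-07, edgeR's quasi-likelihood test). The groups did not overlap, and the transcript was reduced and not absent. All 14 pluripotent stem cell markers were above 3 counts, with a summed level of 8213 to 8386 CPM (counts scaled to a fixed library total) in WT and 7690 to 7796 CPM in S6K1-/- cells. Of 16 mesenchyme and fibroblast markers, DCN and FAP had 0 counts in every library and TWIST1, PRRX1, LUM and MEOX1 had at most 3, and the summed level of the list was 663 to 683 CPM in WT and 664 to 686 CPM in S6K1-/- cells, most of it from THY1 (488 CPM in WT) and FBLN1 (168 CPM). Of the 6 tested, TWIST2 (2.01 times lower) and PDGFRB (2.53 times lower) passed the test in S6K1-/- cells, against 2.54% of all genes lower. Of the others, FBLN1 had a log2 fold change of 0.12 (adjusted p = 0.0648, edgeR) without overlap, and THY1 (-0.02), PDGFRA (0.17) and POSTN (-0.53) overlapped. Their part in the collagen values was not tested. In bulk RNA, fewer cells of a type and less RNA per cell cannot be told apart.

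The Gly-X-Y repeat is written into the exons of these genes, as shown by 1 exon each of COL16A1 and COL9A1, which both take part in the results below. COL16A1 exon 51 of 71 lies at chr1:31668165-31668218 and COL9A1 exon 22 of 38 at chr6:70255337-70255390, both on the minus strand of GRCh38. Capitals mark the glycine codons, which recur every 9 nucleotides, 6 to an exon of 54 nucleotides.
COL16A1 exon 51: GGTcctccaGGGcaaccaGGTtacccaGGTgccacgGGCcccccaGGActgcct
COL9A1 exon 22: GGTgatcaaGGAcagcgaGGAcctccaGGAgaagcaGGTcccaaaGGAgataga
COL16A1 has 12 coding exons of 54 nucleotides, of which 10 have glycine codons at all 6 positions, and in COL9A1 it is 14 of 14. Of 2027 exons of the 44 genes in the GENCODE 44 annotation, 474 were 54 nucleotides long, or 23.4%, against 0.401% of the exons of 13757 other protein-coding genes tested. A collagen gene had a median of 48 exons, from 3 in COL10A1 to 119 in COL7A1. The exon length matters for the measurement, because Bowtie2 does not align a read across a splice junction. A median of 37.0% of a collagen transcript lay in exons of 300 nucleotides or more, which can hold both 150-nucleotide mates, against 68.3% in the other genes. The share was highest in COL8A1 (96.4%) and lowest in COL7A1 (3.79%). Both groups were aligned in the same way, while levels of different genes may be affected unequally.

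Of the 44 genes, 37 passed the filter on low counts among 19521 genes tested. At an adjusted p under 0.001, 10 of the 37 collagen genes (27%) were lower in S6K1-/- cells and 1 (2.7%) was higher, against 2.54% and 1.42% of all genes tested, or 3.96% in either direction. COL1A1, COL1A2 and COL5A2 of the fibrillar class were lower, as were COL4A3 of the basement membrane class, COL9A1, COL12A1, COL14A1 and COL16A1 of the FACITs, the short chain gene COL8A1 and COL6A3 of the beaded filaments. COL6A1 was higher. The other 26 genes did not pass. The median log2 fold change was -0.19 over the 37 genes and -0.00 over all genes tested, and 21 of the 37 values (56.8%) were below 0, near the 50.6% of all genes. At an adjusted p under 0.05, 14 were lower and 3 higher, against 8.31% and 5.47% of all genes. The values of WT and S6K1-/- cells stood apart in 23 of the 37 genes, in 16 with S6K1-/- lower and in 7 with S6K1-/- higher, against 30.7% of all genes, of which 16.7% lower and 14.0% higher.

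**Figure D1:**
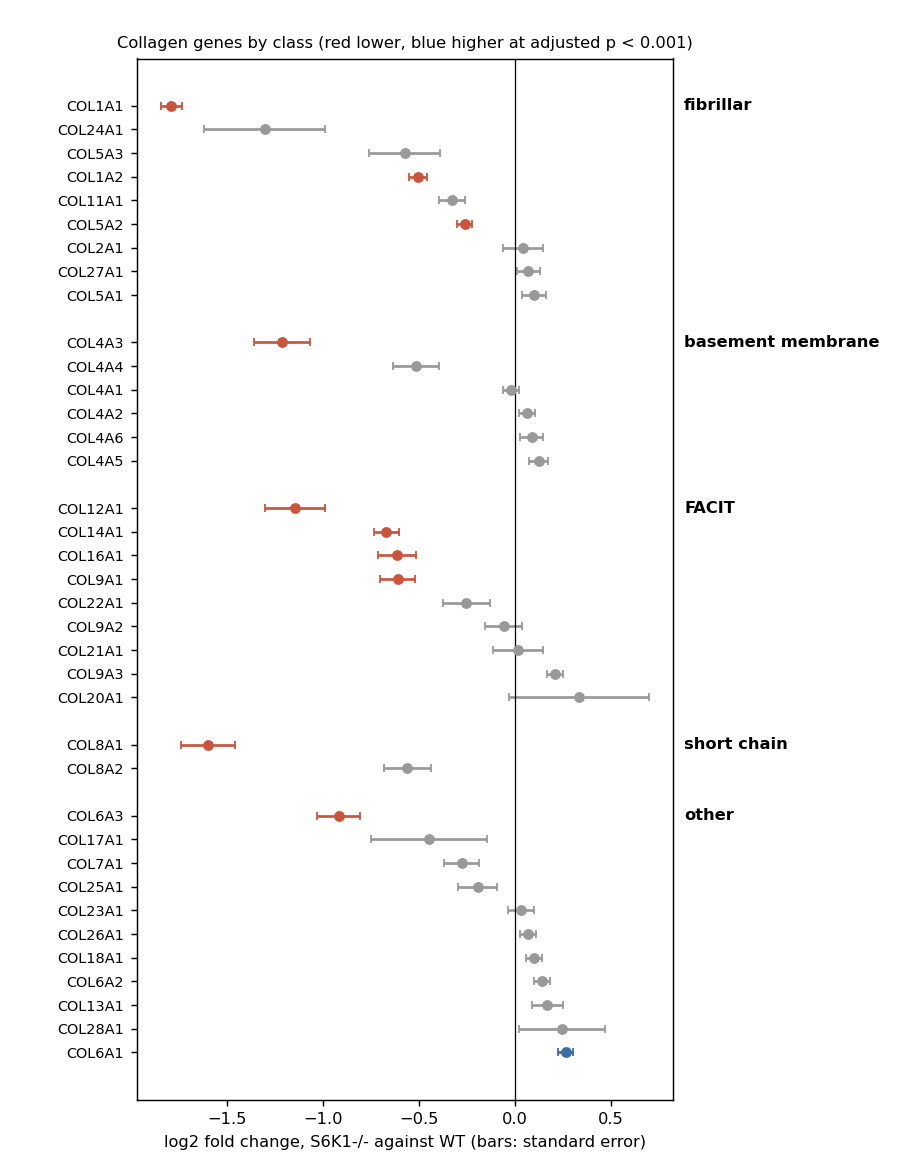
Log2 fold change of S6K1-/- against WT cells for the 37 collagen genes tested, grouped by class, with the standard error as bars. The 10 red genes were lower and the blue gene, COL6A1, higher at an adjusted p under 0.001, and the grey genes did not pass.

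Of the lower genes, 6 kept an adjusted p under 0.001 when any 1 library was left out (COL1A1, COL1A2, COL4A3, COL6A3, COL8A1 and COL14A1), and the other 5 calls did not hold in all of these fits, as given with each gene. The genes just inside the threshold were COL5A2 (adjusted p = 3.82e-04) and COL16A1 (6.60e-04), and those just outside it were COL9A3 (0.00293) and COL11A1 (0.00464), all by edgeR's quasi-likelihood test.

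Both genes of type I collagen, the main protein of bone, skin and tendon, were lower, and COL1A1 had the largest log2 fold change of the 37 genes tested. COL1A1, which encodes the alpha 1 chain, had 2000, 1945 and 1840 counts in WT and 534, 601 and 472 in S6K1-/- libraries. Every S6K1-/- library was far below every WT library. The mean fell from 80.2 ± 1.73 CPM to 23.2 ± 1.75 CPM (SD, n = 3), a log2 fold change of -1.79 ± 0.05 (SE) and an adjusted p of 6.95e-12 by edgeR's quasi-likelihood test. COL1A2, which encodes the alpha 2 chain of the same trimer, had 1495, 1503 and 1362 counts in WT and 1033, 978 and 936 in S6K1-/- libraries, a log2 fold change of -0.50 ± 0.05 (adjusted p = 2.50e-06). The groups did not overlap in either gene, and the change of COL1A2 was the smaller. COL3A1, the chain of type III collagen, was not tested and had at most 2 counts in a library.

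Of the 3 genes of type V collagen, which sits within type I fibrils, COL5A2 passed and COL5A1 and COL5A3 did not. COL5A2, the gene of this class with the highest CPM, had 2934, 2908 and 2764 counts in WT and 2432, 2315 and 2140 in S6K1-/- libraries. It fell by 0.26 ± 0.04 on the log2 scale (adjusted p = 3.82e-04, edgeR), but its adjusted p was between 0.00327 and 0.00408 without WT replicate 1 or 3 or S6K1-/- replicate 2 or 3. Its partner COL5A1 had a log2 fold change of 0.10 ± 0.06 (95% interval -0.02 to 0.23), and COL5A3 one of -0.57 ± 0.19 (adjusted p = 0.0535). COL11A1, a chain of the type XI collagen of cartilage, was at 22.9, 22.1 and 19.7 CPM in WT and 17.2, 17.3 and 17.1 CPM in S6K1-/- libraries. It was lower at the looser threshold only (log2 fold change -0.33, adjusted p = 0.00464). COL24A1 was at 2.30, 1.22 and 1.21 CPM in WT and 0.767, 0.418 and 0.735 CPM in S6K1-/- libraries, so that 1 WT library stood above the rest, with a log2 fold change of -1.30 ± 0.31 (adjusted p = 0.0111). Without that library, WT replicate 1, the log2 fold change was -0.92 (adjusted p = 0.0625), and without S6K1-/- replicate 2 the adjusted p was 0.0598. COL2A1, the main collagen of cartilage, and COL27A1 had log2 fold changes of 0.04 and 0.07, with intervals of -0.17 to 0.25 and -0.05 to 0.19. Of the 9 fibrillar genes tested, 3 were lower (33.3%, against 2.54% of all genes), 0 higher and 6 not called, and the median log2 fold change was -0.33. The number higher was also 0 at an unadjusted p under 0.05 in edgeR, against 11.8% of all genes, and with DESeq2. With 9 genes, a count of 0 is near that background.

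**Figure D2:**
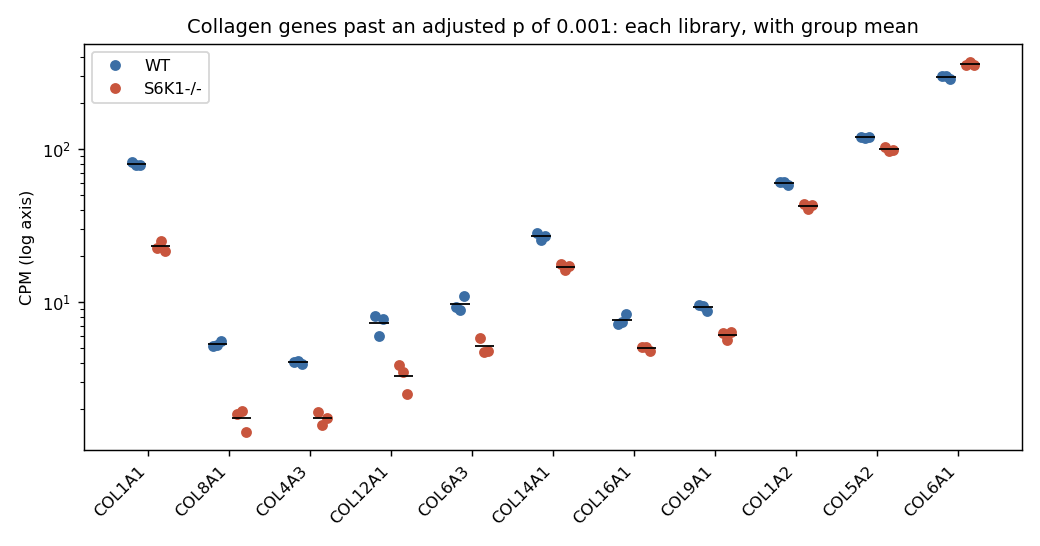
Level in CPM (log axis) of the 11 collagen genes past an adjusted p of 0.001, with a point per library (WT blue, S6K1-/- red) and a line at each group mean (n = 3). The 3 libraries of a group sit apart from those of the other group in all 11 genes, and the gap is widest for COL1A1, at 80.2 against 23.2 CPM.

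The type IV genes lie as head to head pairs that share the stretch between their start sites. Of these 6 genes COL4A3 alone passed the test, in the lower direction (16.7%, against 2.54% of all genes). The stretch is shown for each pair from RefSeq start sites on GRCh38.p14, on the plus strand, since both genes of a pair are transcribed outward from it. Capitals mark the CCAAT box (CCAAT or its reverse complement ATTGG) and the GC box (GGGCGG or CCGCCC), and for the longer 2 stretches only the 250 bases next to the plus strand gene are given.
COL4A1 and COL4A2, chr13:110307158-110307283: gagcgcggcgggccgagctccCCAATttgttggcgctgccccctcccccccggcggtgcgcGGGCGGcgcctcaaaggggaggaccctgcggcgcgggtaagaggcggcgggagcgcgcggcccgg
COL4A4 and COL4A3, chr2:227164374-227164623: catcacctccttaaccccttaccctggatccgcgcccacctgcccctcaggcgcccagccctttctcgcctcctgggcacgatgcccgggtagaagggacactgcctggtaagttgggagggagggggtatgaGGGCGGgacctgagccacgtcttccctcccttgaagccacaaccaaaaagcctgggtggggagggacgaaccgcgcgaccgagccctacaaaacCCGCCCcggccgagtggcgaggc
COL4A6 and COL4A5, chrX:108439588-108439837: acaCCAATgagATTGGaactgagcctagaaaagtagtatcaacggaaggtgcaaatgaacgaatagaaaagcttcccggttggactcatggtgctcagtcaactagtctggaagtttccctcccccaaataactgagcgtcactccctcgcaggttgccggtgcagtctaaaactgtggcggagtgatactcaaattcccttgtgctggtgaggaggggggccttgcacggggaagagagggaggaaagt
The start sites were 126 bases apart for COL4A1 and COL4A2, 418 for COL4A3 and COL4A4 and 379 for COL4A5 and COL4A6, with a GC content of 80.2%, 70.1% and 48.5% over the whole stretch. The first held 1 CCAAT box and 1 GC box, the second 0 and 2, and the third 3 (2 of them in the bases shown) and 0. None held TATAAA on either strand. In the 250 bases before the start site, 32.0% of 35116 RefSeq promoters held a CCAAT box, 42.6% a GC box and 10.7% TATAAA. Among the 44 entries of 32 collagen genes these were in 12, 24 and 8. The matches describe the letters only.

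COL4A1 and COL4A2, the chains of nearly every basement membrane, were at 186 ± 2.98 and 224 ± 7.31 CPM in WT and 183 ± 7.19 and 234 ± 6.86 CPM in S6K1-/- cells. Their groups overlapped, and the log2 fold changes were -0.02 (95% interval -0.10 to 0.06) and 0.06 (-0.02 to 0.14). COL4A5 and COL4A6, whose chains occur in the basement membranes of smooth muscle and other tissues, had log2 fold changes of 0.12 (adjusted p = 0.105) and 0.09 (0.392), by edgeR's quasi-likelihood test. In contrast, COL4A3, a chain of the kidney, lung and inner ear basement membrane, had 99, 102 and 92 counts in WT and 45, 38 and 38 in S6K1-/- libraries. Its log2 fold change was -1.21 ± 0.14 (adjusted p = 3.00e-05), and the groups lay far apart. COL4A4, its neighbour and partner, was at 5.50, 5.00 and 5.38 CPM in WT and 3.24, 4.01 and 3.86 CPM in S6K1-/- libraries, with a log2 fold change of -0.52 ± 0.12 (adjusted p = 0.00919, and 0.0572 without S6K1-/- replicate 1). COL4A3 shares 838 exonic nucleotides (6.82% of its exonic length) with MFF-DT on the opposite strand, and the strand setting of the counting is not given in the sources used here.

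Of the 9 FACIT genes tested, 4 were lower and 0 higher at an adjusted p under 0.001 in edgeR, against 2.54% and 1.42% of all genes. In edgeR 1 was higher at an unadjusted p under 0.05 (11.8% of all genes were), and with DESeq2 1 was higher. COL14A1, which binds type I fibrils, had 691, 625 and 632 counts in WT and 415, 387 and 373 in S6K1-/- libraries, a log2 fold change of -0.67 ± 0.07 (adjusted p = 4.69e-06, edgeR's quasi-likelihood test). COL12A1, a related fibril-binding gene of tendon and ligament, had 199, 148 and 182 counts in WT and 91, 84 and 55 in S6K1-/- libraries (log2 fold change -1.14 ± 0.15, adjusted p = 1.08e-04). The libraries of COL12A1 were spread within both groups but did not overlap, and its adjusted p was 0.00112 without WT replicate 3. COL16A1 had 176, 183 and 194 counts in WT and 120, 123 and 104 in S6K1-/- libraries (log2 fold change -0.61 ± 0.10). Its adjusted p of 6.60e-04 rose to between 0.00138 and 0.00596 whichever library was left out. COL16A1 also missed the threshold with the replicate number as a block (adjusted p = 0.00231) and with DESeq2's Wald test (0.00124).

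Of the 3 chains of type IX collagen, a FACIT of cartilage and vitreous, COL9A1 passed and COL9A2 and COL9A3 did not. COL9A1 had 234, 234 and 205 counts in WT and 147, 135 and 140 in S6K1-/- libraries, a log2 fold change of -0.61 ± 0.09 (adjusted p = 3.03e-04, edgeR). It lost its call whichever library was left out, with an adjusted p between 0.00112 and 0.00243, and with the replicate block (0.00119). COL9A3, the FACIT gene of the highest level, was at 82.3, 85.9 and 79.6 CPM in WT and 94.1, 96.3 and 96.2 CPM in S6K1-/- libraries, so that its groups did not overlap in the other direction. Its log2 fold change was 0.21 ± 0.04 (adjusted p = 0.00293, and 8.65e-04 with DESeq2's Wald test). COL9A2 overlapped between the groups, at -0.06 (95% interval -0.25 to 0.13). COL9A3 shares 155 exonic nucleotides (3.20% of its exonic length) with TCFL5 on the opposite strand. COL20A1, COL21A1 and COL22A1 overlapped too, with log2 fold changes of 0.34, 0.02 and -0.25. COL19A1 was not tested, with at most 1 count in a library.

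Of the short chain genes, both type VIII chains of the endothelial and corneal basement membrane were low in level. COL8A1 had 126, 130 and 129 counts in WT and 44, 47 and 31 in S6K1-/- libraries, a log2 fold change of -1.60 ± 0.14 (adjusted p = 1.56e-06, edgeR's quasi-likelihood test). Each S6K1-/- library was far below each WT library. COL8A2, at 5.22, 4.92 and 4.56 CPM in WT and 3.53, 3.01 and 3.45 CPM in S6K1-/- libraries, was lower at the looser threshold only (log2 fold change -0.56 ± 0.12, adjusted p = 0.0061). COL10A1, the collagen of hypertrophic cartilage, did not pass the filter, at 0.128 to 0.376 CPM over the 6 libraries.

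Within the other types, of the genes of type VI collagen, which forms beaded filaments around cells, COL6A1 was higher and COL6A3 lower. COL6A1, which had the highest level of any collagen per kilobase of transcript (70.8 CPM per kb in WT), had 7345, 7423 and 6704 counts in WT and 8254, 8799 and 7671 in S6K1-/- libraries. After scaling it was at 302, 302 and 289 CPM in WT and 352, 368 and 352 CPM in S6K1-/- libraries, without overlap. The log2 fold change was 0.26 ± 0.04 (adjusted p = 3.03e-04, edgeR), and it missed the threshold when any library but WT replicate 2 was left out, with an adjusted p between 0.00101 and 0.00324. COL6A2, next to it on chromosome 21, had a log2 fold change of 0.14 ± 0.04 (adjusted p = 0.0305). When any library but WT replicate 2 was left out, the adjusted p of COL6A2 was between 0.0536 and 0.115. COL6A3, whose chain completes the trimer, had 228, 220 and 254 counts in WT and 138, 114 and 105 in S6K1-/- libraries, a log2 fold change of -0.92 ± 0.11 (adjusted p = 3.92e-05). COL6A3 was thus the low member, at 0.926 CPM per kb in WT against 29.7 for COL6A2. COL6A5 and COL6A6 were not tested, with COL6A6 at 0.041 to 0.334 CPM.

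The remaining types did not pass at either threshold. COL18A1, a multiplexin whose cleavage releases endostatin, was at 326 ± 13.1 CPM in WT and 349 ± 10.5 CPM in S6K1-/- cells (log2 fold change 0.10, 95% interval 0.02 to 0.18, adjusted p = 0.150, edgeR). It shares 1563 exonic nucleotides (18.5%) with SLC19A1 on the opposite strand. COL7A1, which forms the anchoring fibrils of skin, had a log2 fold change of -0.28 (adjusted p = 0.0605). Among the transmembrane types, COL13A1, COL17A1, COL23A1 and COL25A1 had 0.17, -0.45, 0.03 and -0.19, and COL26A1 and COL28A1 had 0.07 and 0.25. COL15A1, the other multiplexin, was at 0.043 to 0.209 CPM and was not tested. COL11A2 had 0 to 5 counts, and its level cannot be read, because its neighbours RING1, VPS52, SLC39A7 and B3GALT4 were also at 0 to 5 counts, among them genes that most cells use.

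Among the genes that passed the filter, the changes were of unequal size along the range of levels. The lower calls were at low as well as high levels, with 6 of 19 genes under 10 CPM, 1 of 6 between 10 and 50 CPM and 3 of 12 at 50 CPM or more, against 2.74%, 2.83% and 1.72% of all genes in these ranges. The higher call was at 50 CPM or more, where 2.24% of all genes were higher. Under 10 CPM, 15 of the 19 values (78.9%) were below 0, against 57% of all genes in that range. At 50 CPM or more it was 4 of 12 (33.3%), near the 38.1% of all genes. The median log2 fold change was -0.52 under 10 CPM and 0.07 at 50 CPM or more, where that of all genes was -0.05 and 0.02. These values share the libraries and are given as a description.

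**Figure D3:**
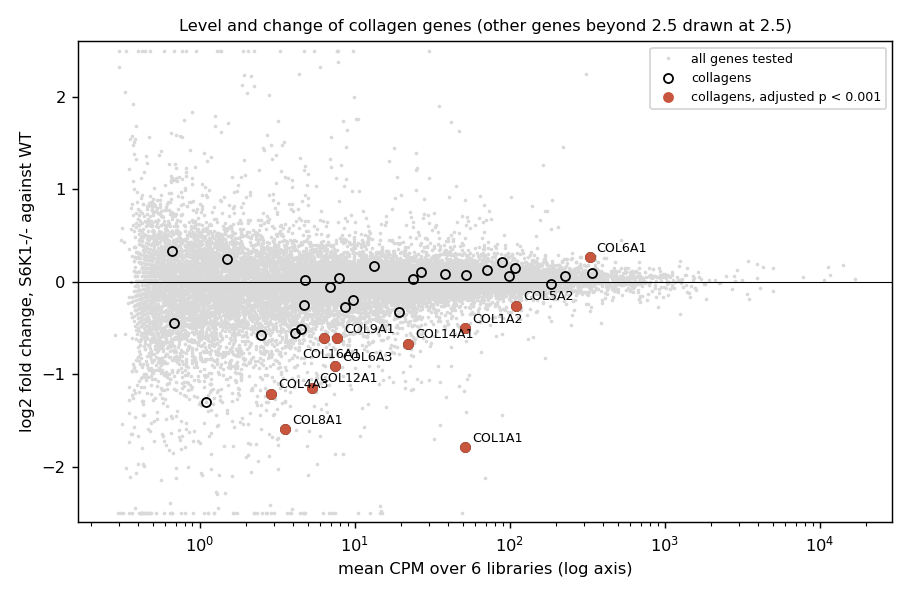
Mean level in CPM over the 6 libraries (log axis) against the log2 fold change of S6K1-/- against WT, for all 19521 genes tested (grey) and the 37 collagen genes (circles, filled where the adjusted p was under 0.001). COL1A1 stands at -1.79 at a mean level where most genes are near 0, and the most abundant collagens, COL6A1 and COL18A1, are above 0.

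By level per kilobase of transcript in WT cells, COL6A1 was followed by COL18A1 (60.3 CPM per kb), COL4A2 (34.7), COL9A3 (33.1), COL26A1 (32.4), COL6A2 (29.7) and COL4A1 (28.4). COL5A2 (17.5), COL1A1 (13.6) and COL1A2 (11.9) came after them. In S6K1-/- cells COL1A1 was at 3.92 and COL1A2 at 8.40 CPM per kb, so that their order turned. COL3A1 was at 0.0127 CPM per kb in WT cells, far below both type I genes.

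The collagen transcripts together took 0.196% ± 0.005 of all counts in WT and 0.193% ± 0.002 in S6K1-/- libraries (SD, n = 3), and the ranges overlapped. Within them the composition differed. Fibrillar genes took 18.8% to 19.3% of the collagen counts in WT and 13.9% to 14.4% in S6K1-/- libraries. The short chain genes took 0.539% ± 0.005 and 0.273% ± 0.010, and the other types took 45.7% ± 0.741 and 50.6% ± 0.783. The basement membrane genes, at 26.9% ± 0.541 and 27.6% ± 0.623, overlapped between the groups. The FACIT genes took 7.68% to 7.83% in WT and 7.33% to 7.49% in S6K1-/- libraries, which did not overlap but lay close together. COL1A1 alone went from 4.12% to 1.19% of the collagen counts and COL6A1 from 15.3% to 18.4%. No test was made on these shares, since the shares of 1 library sum to a whole.

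**Figure D4:**
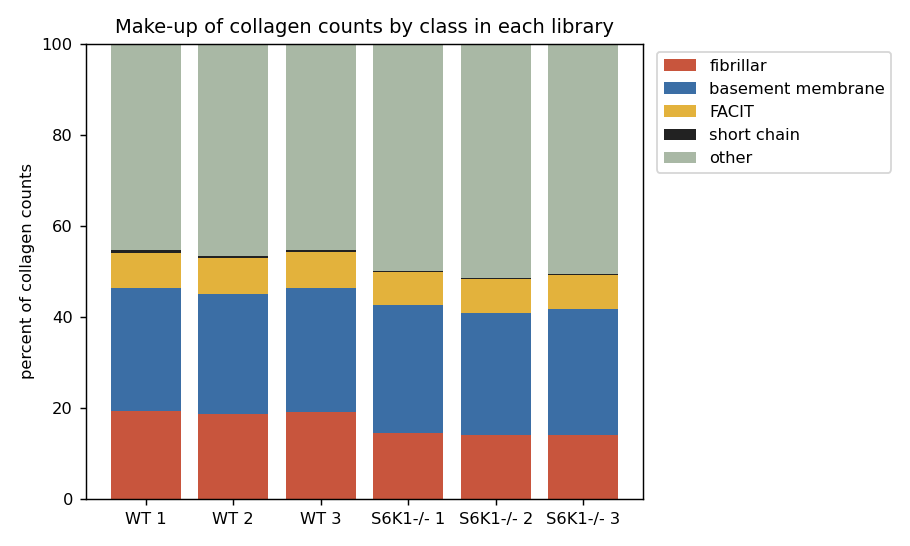
Percent of collagen counts in each class, stacked for each of the 6 libraries, on an axis from 0 to 100. The fibrillar share (bottom, red) is 18.8% to 19.3% in WT and 13.9% to 14.4% in S6K1-/- libraries, and the other types (top) take more.

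A ratio of 2 chains within a library needs no scaling between libraries, and it was compared for 8 pairs that share a trimer or a start region. COL1A1 over COL1A2 was 1.34, 1.29 and 1.35 in WT and 0.517, 0.615 and 0.504 in S6K1-/- libraries, a difference of -1.29 on the log2 scale. The ratio was above 1 in every WT library and below 1 in every S6K1-/- library. COL8A1 over COL8A2 differed by -1.06, COL4A3 over COL4A4 by -0.70, COL9A2 over COL9A3 by -0.27, COL6A1 over COL6A2 by 0.12 and COL5A1 over COL5A2 by 0.36, all without overlap. Each of these 6 had an exact two-sided permutation p of 0.1, the smallest that 3 against 3 libraries can give, and 0.133 after Benjamini-Hochberg adjustment over the 8 pairs. COL4A1 over COL4A2 (difference -0.08, exact permutation p = 0.2, adjusted 0.229) and COL4A5 over COL4A6 (0.04, p = 0.8) overlapped. The difference for COL4A5 over COL4A6 turned to -0.01 without S6K1-/- replicate 2.

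**Figure D5:**
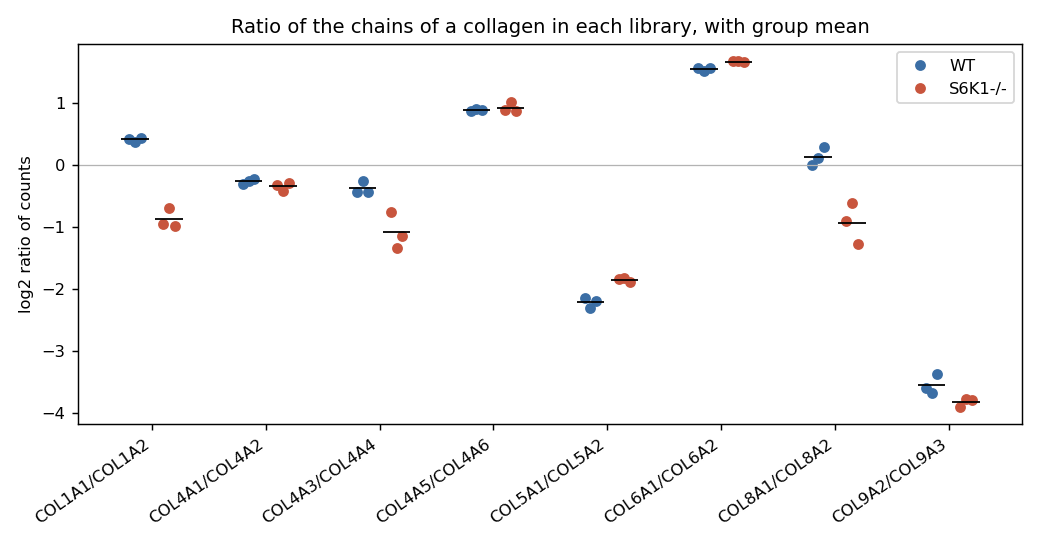
Log2 ratio of the counts of 2 chains in each library (WT blue, S6K1-/- red), with a line at the group mean (n = 3). The ratio of COL1A1 to COL1A2 drops from above 0 to below 0, while COL4A1 over COL4A2 and COL4A5 over COL4A6 overlap.

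Genes that make, export, cross-link, bind or cleave collagen were counted as a further set of 62, of which 54 were tested. At an adjusted p under 0.001, 6 were lower (11.1%) and 1 higher (1.85%), against 2.54% and 1.42% of all genes, so that the share higher was near the background. Collagen chains are first hydroxylated and glycosylated in the endoplasmic reticulum, and of the 15 genes of these enzymes and their partners 0 passed in edgeR or DESeq2. At an unadjusted p under 0.05, 8 were lower and 1 higher, against 14.5% and 11.8% of all genes. At an adjusted p under 0.05, against 8.31% of all genes, the 7 that were lower included CRTAP (log2 fold change -0.17), P4HA2 (-0.46) and PLOD2 (-0.23). Of the 13 genes of folding and export, CREB3L1, a transcription factor of collagen secretion, was at 12.7, 12.4 and 12.9 CPM in WT and 8.35, 8.27 and 9.28 CPM in S6K1-/- libraries (log2 fold change -0.56, adjusted p = 1.83e-04, edgeR). SPARC, a collagen-binding matrix protein, had a log2 fold change of -0.25 (adjusted p = 9.31e-04), and SERPINH1, the collagen chaperone, one of -0.02 (0.842). CREB3L1 lost its call without WT replicate 1 or 3 or S6K1-/- replicate 1 or 2, and SPARC whichever library was left out.

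After secretion, the propeptides are removed and the chains cross-linked, and 2 of 13 such genes tested were lower (15.4%, against 2.54% of all genes). PCOLCE, the enhancer of propeptide removal, had 756, 797 and 644 counts in WT and 396, 444 and 371 in S6K1-/- libraries, a log2 fold change of -0.80 ± 0.07 (adjusted p = 1.49e-06, edgeR's quasi-likelihood test). LOX, the lysyl oxidase that cross-links collagen, had 73, 88 and 84 counts in WT and 33, 41 and 39 in S6K1-/- libraries, a log2 fold change of -1.05 ± 0.16 (adjusted p = 3.70e-04). Neither gene overlapped between the groups, and LOX kept its call only without WT replicate 1. The receptor DDR2 had 96, 84 and 91 counts in WT and 28, 33 and 25 in S6K1-/- libraries, a log2 fold change of -1.59 ± 0.16 (adjusted p = 6.10e-06). Of 7 cleavage genes tested, TIMP1, an inhibitor of metalloproteinases, fell by 0.40 on the log2 scale (adjusted p = 7.67e-04), and MMP2, a gelatinase, rose by 0.25 (6.03e-04). That is 14.3% in each direction, against 2.54% of all genes lower and 1.42% higher. DDR2 was the 1 called gene of 6 receptors tested (16.7%). TIMP1 lost its call whichever library was left out, and MMP2 when any library but WT replicate 2 was left out, so that DDR2 and PCOLCE were the 2 calls of the set kept in all 6 such fits.

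The genes around the collagens had medians near 0. The tested genes within 2 Mb on either side had a median log2 fold change of 0.04 for COL1A1 (52 genes), 0.06 for COL6A1 (35), 0.03 for COL8A1 (24) and -0.05 for COL4A3 (6). Over the 44 collagens this median ran from -0.14 at COL24A1 to 0.07 at COL22A1.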

How the data were processed

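Poly(A) RNA (TruSeq Stranded mRNA) of 3 WT and 3 S6K1-/- samples was sequenced as paired reads of 150 bases. The authors trimmed reads with Trim Galore 0.6.5, aligned them to GRCh38 with Bowtie2 2.4.5 and deposited whole-number read counts per gene symbol from featureCounts, without normalization. The annotation release and strand setting are not given in the sources used here. A second table deposited by the authors holds their own comparison and was not used.

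Symbols passing edgeR's filterByExpr (19521 of 61155) were compared with edgeR's quasi-likelihood test (edgeR 4.0.16, R 4.3.3) after TMM normalization, with genotype as the only factor and Benjamini-Hochberg adjustment over all genes tested. The threshold was an adjusted p of 0.001, and levels are CPM after TMM. Library totals were 21896698 to 24473013 counts. Replicates differed beyond counting noise (chi-square per degree of freedom 2.11 to 4.14). In a simulation of this comparison over 19251 genes, 141 of 200 genes changed by 1 on the log2 scale were called (70.5%), with 2 unchanged genes called. Gene positions and exons are from GENCODE 44.

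The members, lists and named genes were chosen with earlier results of these data known. The named genes are RPS6KB1, every collagen past the threshold or nearest to it, the most abundant of each class, the chain pairs, and the called pathway and marker genes. Other collagens are named to account for every member. Alternatives were DESeq2's size factors and Wald test (DESeq2 1.42.0), other filters and thresholds, a replicate block and leaving out each library.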

Additional observations from a re-analysis of the deposited data

How the results depend on the processing

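Of 405 values of single collagens under the alternatives, 368 kept their direction and their side of the threshold. With DESeq2's size factors or at least 10 counts in every library, 10 collagens were lower and 1 higher, as with the reported settings. By the Wald test of DESeq2, 9 collagens were lower and 2 higher, COL9A3 being the added one. Without a filter on low counts, 12 collagens were lower and 2 higher, 982 genes in all were lower and 591 higher, and 2 collagen-handling genes were higher. At an adjusted p under 0.05, 3 collagens were higher, 1622 genes in all were lower and 1067 higher, and 19 collagen-handling genes were lower and 2 higher. With 1 library left out, 6 to 8 collagens were lower (6 without WT replicate 3) and 0 to 1 higher, 313 to 445 genes in all were lower and 175 to 235 higher, and 2 to 3 collagen-handling genes were lower and 0 to 1 higher. Fewer libraries enter these fits.

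Equal replicate numbers did not mark pairs, as same-numbered libraries had correlations of 0.03, -0.02 and 0.04 in their deviations over 16809 genes. With the replicate number as a block, 8 collagens were lower and 1 higher (COL9A1 and COL16A1 lost their calls), 423 genes in all were lower and 241 higher, and 5 collagen-handling genes were lower and 0 higher.

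Values near 0, and that of COL20A1 (0.34 with all libraries), changed sign when 1 library was left out. Over these fits COL2A1 ran from -0.0218 (without WT replicate 3; -0.0194 without S6K1-/- replicate 2) to 0.161, COL4A1 from -0.0468 to 0.0100 (without S6K1-/- replicate 2), COL9A2 from -0.0919 to 0.0112 (without WT replicate 3), COL20A1 from -0.0242 (without WT replicate 1) to 0.713, COL21A1 from -0.0690 (without WT replicate 2; -0.0253 without WT replicate 3) to 0.178 and COL23A1 from -0.0221 (without WT replicate 3) to 0.0736. The difference between the groups in the log2 ratio of COL4A5 to COL4A6 ran from -0.00995 (without S6K1-/- replicate 2) to 0.0617. The cause was not tested. At 3 libraries a group, collagens of a few counts cannot show a difference, and 7 of the 44 were not tested.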

Other observations

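Some markers of cell types other than stem cells differed between the groups. The summed level of 11 endoderm markers was 20.3 to 23.4 CPM in WT and 11.6 to 13.7 CPM in S6K1-/- libraries. Of the 6 tested, FOXA1 was lower (log2 fold change -0.65, adjusted p = 8.82e-05 by edgeR's quasi-likelihood test, and 0.00114 without S6K1-/- replicate 3), against 2.54% of all genes. All 6 were below 0, against 50.6% of all genes, and DESeq2 called 2 lower. At an adjusted p under 0.05, 3 were lower in edgeR, with FOXA2 at -0.88 (0.00108) and CXCR4 at -1.26 (0.0235) beside FOXA1. Amnion and trophoblast markers summed to 24.1 to 26.0 CPM and 20.6 to 22.7 CPM, with 0 of 4 tested called at 0.001 by edgeR, 1 lower at an unadjusted p under 0.05 (14.5% of all genes were) and 1 lower by DESeq2. Among endothelial markers TEK, a receptor tyrosine kinase, had 281, 277 and 250 counts in WT and 30, 33 and 23 in S6K1-/- libraries (log2 fold change -3.17, adjusted p = 9.90e-11), while KDR, the most abundant of the list, was at 104 CPM in WT and 107 CPM in S6K1-/- cells (log2 fold change 0.04, adjusted p = 0.635), PECAM1 was at or under 3 counts and EMCN at 0. At an adjusted p under 0.05, 3 of the 5 tested were lower, against 8.31% of all genes, with ERG at -0.36 (adjusted p = 0.00874) and TIE1 at -0.71 (0.0200) beside TEK, and VWF was at -0.43 (0.186). The endothelial list summed to 120.8 to 133.5 CPM in WT and 117.2 to 120.0 CPM in S6K1-/- libraries. Of the 5 neuroectoderm markers tested, PAX6 alone passed, in the higher direction (log2 fold change 0.76, adjusted p = 2.69e-04, lost without WT replicate 1 or S6K1-/- replicate 2 or 3), against 1.42% of all genes. SOX1 was at 1.29 (adjusted p = 0.0174, edgeR) and SIX3 at 0.15, while DLK1 (-0.41) and NES (-0.06) were below 0. OTX1, which was not tested, had 13, 14 and 7 counts in WT and 2, 1 and 2 in S6K1-/- libraries. The list, most of it NES (442 CPM in WT), summed to 463 to 484 CPM in WT and 454 to 473 CPM in S6K1-/- libraries. Of 14 pluripotency markers, DNMT3B (-0.35) and USP44 (-0.32) were lower at an adjusted p under 0.001 (14.3%, against 2.54% of all genes). These marker values were not tested against the collagens.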
